A study of Caenorhabditis elegans with 32 samples.

Results

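The mitochondrial genome of Caenorhabditis elegans carries 12 protein genes, and 10 of them are described here: the complex I subunit genes nduo-1, nduo-2, nduo-3, nduo-4, nduo-5 and nduo-6, the complex IV subunit genes ctc-1, ctc-2 and ctc-3, and the complex III gene ctb-1. They were chosen by gene name from a table of 46726 genes, and all 10 passed the filter on low counts in every fit. Fragments were counted in 32 RNA-seq libraries, 4 biological replicates in each of 8 groups. The groups were sorted GFP-positive neurons on day 7 of adulthood at 21% and at 7% O2, the same neurons on day 1 at 21% and at 7% O2, and whole worms at the same ages and O2 levels. The whole-worm samples were aliquots of the dissociated cell suspension taken before sorting, so they hold every tissue that came apart.

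All 8 groups were hermaphrodites of strain KL123, which carries the npr-1(ad609) allele and the transgene iaIs25[Pgcy-37::GFP + unc-119(+)]. The gcy-37 promoter drives GFP in the O2-sensing neurons URX, AQR and PQR, and the study also saw weaker GFP at times in AVM and ASI, so the sorted fraction is not one cell type. Every group, controls included, was fed mex-3 RNAi bacteria from the third larval stage, which stops embryos from developing. Day 7 animals went back to OP50 bacteria partway through adulthood, so food and the length of RNAi feeding changed together with age, and their effects cannot be told apart. Worms lived at either 21% O2, the level of air, or at 7% O2.

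Mitochondria keep a small circular genome of their own, present in many copies per cell and read by a dedicated RNA polymerase into long transcripts that are cut into separate messages at the tRNAs between the genes. In the worm all of its genes lie on one strand. The proteins it encodes form the membrane core of the respiratory chain: complex I takes electrons from NADH, complex III passes them through cytochrome b to cytochrome c, and complex IV hands them to O2. The other subunits come from nuclear genes. Neurons depend on respiration for the ATP that ion pumps and synapses use, and URX, AQR and PQR sense O2 itself through soluble guanylate cyclases such as GCY-35 and GCY-36.

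On the mitochondrial genome (WBcel235, positions from the Ensembl release 115 annotation, all on the plus strand), ctc-1 (WBGene00010964) lies at MtDNA:7827-9428, ctc-2 (WBGene00010965) at MtDNA:9649-10348 and ctc-3 (WBGene00010962) at MtDNA:5678-6449. The ctb-1 gene (WBGene00000829) lies at MtDNA:4504-5621. The complex I genes are nduo-6 (WBGene00010957) at MtDNA:113-549, nduo-1 (WBGene00010959) at MtDNA:1763-2635, nduo-2 (WBGene00010961) at MtDNA:3389-4269, nduo-4 (WBGene00010963) at MtDNA:6506-7808, nduo-3 (WBGene00010966) at MtDNA:11356-11691 and nduo-5 (WBGene00010967) at MtDNA:11691-13272. Each is a single exon, coding along most of its length. Neighbors lie close or overlap (nduo-3 and nduo-5 share base 11691, and the annotated nduo-2 exon overlaps the tRNA gene before it by 28 bases), and a fragment that spans a junction lies in more than one of them. How such fragments were handled is not given in the sources used here.

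Library totals ran between 5365596 and 30666288 counts. One nuclear gene, F31C3.14, which overlaps an rRNA gene on the opposite strand, took a median of 13.9% to 51.3% of a group's counts, so shares are also given outside it. The sort was checked against markers: the summed level of 6 O2-sensing neuron genes averaged 636 and 442 CPM (counts per 1000000, after TMM scaling across all 32 libraries) in day 7 neurons at 21% and 7% O2, and 7204 and 5615 CPM in day 1 neurons, against at most 22 CPM in any whole-worm library. Touch neuron markers were also high, at 10394 and 13490.2 CPM in day 1 neurons. Some neuron libraries stood apart from the other 3 of their group. Replicate 1 of day 1 neurons at 7% O2 had 2736 CPM of O2-sensing markers where the others had 5983 to 7582 CPM, and 8753 CPM of body wall muscle markers where they had 1587 to 2634 CPM. Replicate 4 of day 7 neurons at 21% O2 had 334 CPM of O2-sensing markers (others 678 to 805 CPM), 10995 CPM of intestinal markers (others 4522 to 5279.9 CPM) and 1634 CPM of germline markers (others 277 to 419.5 CPM). For either library, counts of members called or their medians are given with and without it. Except where stated, values of single genes, shares, orders, ratios and other gene lists include both libraries. Among day 1 neurons, replicate 2 at 21% O2 also had 5274 CPM of muscle markers (others 1708 to 2424 CPM), and touch neuron markers reached 19313 CPM in replicate 1 at 21% O2 (others 5130 to 9438 CPM) and 27902 CPM in replicate 2 at 7% O2 (others 8107 to 9160.4 CPM). Leaving out any of these 3 libraries changed no count of members called by over 1.5 times.

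Together the 10 genes took 2.55% ± 0.955, 4.00% ± 0.826 of all counts in day 7 neurons at 21% and at 7% O2, and 9.39% ± 2.2, 10.1% ± 3.82 in day 1 neurons (mean ± SD, n = 4 each). In whole worms the same shares were 1.97% ± 0.607 and 1.89% ± 0.496 on day 7, and 5.11% ± 0.878 and 3.77% ± 0.973 on day 1. Every day 7 neuron library was below the day 1 neuron libraries except for replicate 1 at 7% O2, whose share was 4.87% and lay under the highest day 7 value of 4.98%. Outside F31C3.14 the shares were 3.96% ± 1.46 and 5.28% ± 0.329 in day 7 neurons, and 11.1% ± 1.42 and 12.7% ± 5.59 in day 1 neurons. For whole worms they were 3.62% ± 0.790 and 3.87% ± 1.26 on day 7, and 8.23% ± 2.08 and 6.39% ± 1.74 on day 1. The widest 95% Wilson interval of a library's share spanned 0.0407 percentage points, and like all intervals here it covers counting error only.

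**Figure D1:**
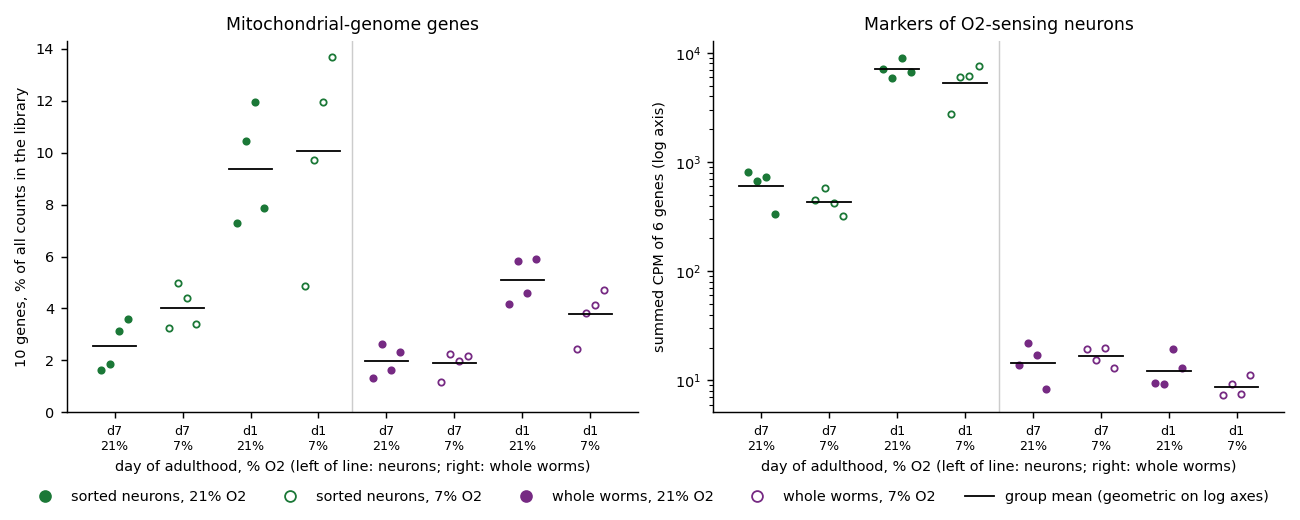
Left, the share of each library's counts that fell on the 10 mitochondrial-genome genes (%). Right, the summed level of 6 markers of O2-sensing neurons (CPM, log axis). Points are libraries, 4 per group, and black lines are group means, geometric on the log axis. Day 7 neurons sit at 1.61 to 4.98% on the left, against 4.87 to 13.7% in day 1 neurons, and the marker sum is lower in the same day 7 libraries.

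Levels per kilobase of gene spanned a wide range within one genome. In day 7 neurons the order was ctc-1, ctc-2, ctc-3, ctb-1, nduo-5, nduo-1, nduo-4, nduo-2, nduo-3 and nduo-6, by mean log2 CPM per kilobase over 8 libraries, and each gene exceeded the next by more than the SD of their difference. In day 1 neurons it was ctc-2, ctc-1, ctb-1, ctc-3, nduo-5, nduo-2, nduo-4, nduo-1, nduo-3 and nduo-6. In that order 3 neighbor pairs differed by less than the SD of their difference: ctc-3 and nduo-5, nduo-2 and nduo-4, and nduo-4 and nduo-1. In whole worms the order was ctc-1, ctc-2, ctc-3, ctb-1, nduo-5, nduo-1, nduo-4, nduo-2, nduo-3 and nduo-6 on day 7 and ctc-2, ctc-1, ctb-1, nduo-5, ctc-3, nduo-4, nduo-1, nduo-2, nduo-3 and nduo-6 on day 1, and on day 1 ctc-2 and ctc-1, nduo-1 and nduo-2, and nduo-3 and nduo-6 each lay within the SD of their difference. The median of ctc-1 was 10002 CPM per kilobase in day 7 neurons and 28356 in day 1 neurons, while nduo-6, the lowest in all 4 orders, was at 29.7 in day 7 neurons and 225 in day 1 neurons.

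**Figure D2:**
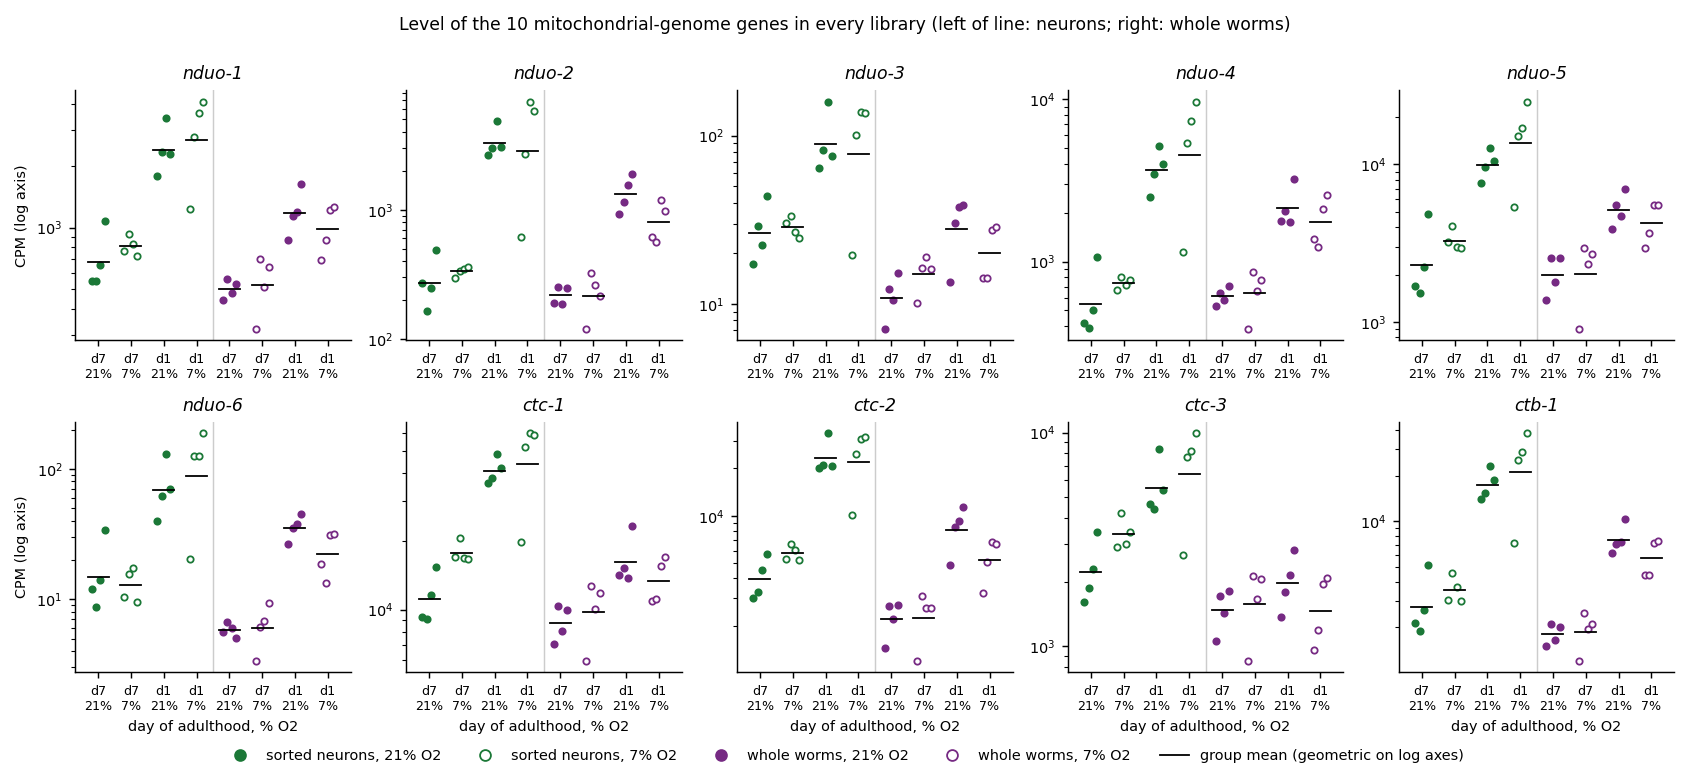
Level of each gene (CPM, log axis) in every library, with neurons left of the gray line and whole worms right of it, day 7 (d7) before day 1 (d1) and 21% O2 (filled) before 7% O2 (open). Points are libraries, 4 per group, and black lines are geometric group means. In all 10 panels the group means of day 7 neurons lie below those of day 1 neurons, and the single low open point among day 1 neurons is replicate 1 at 7% O2.

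The first comparison asks how these transcripts differ between day 7 and day 1 of adulthood. In neurons all 10 fell at both O2 levels. The median log2 change was -2.04 at 21% O2 and -2.15 at 7% O2, against -0.20 and -0.28 over all genes tested. In whole worms 9 of 10 fell at 21% O2 (median -1.56) and 7 of 10 at 7% O2 (median -1.08). The share of all tested genes called lower in the same comparisons was 18% and 21.0% in neurons, and it was 10.7% and 8.36% in whole worms. Calls here and below are from edgeR's quasi-likelihood test, at a Benjamini-Hochberg adjusted p under 0.1 over all genes tested and a fold change of at least 1.5, and errors of log2 changes are SE.

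Complex IV carried most of the counts. For ctc-1, which encodes the catalytic subunit that binds O2, day 7 neurons at 21% O2 had 9277, 9126, 11629 and 15371 CPM, against 36104, 37913, 48576 and 42279 CPM in day 1 neurons. At 7% O2 the day 7 neurons had 17078, 20738, 16905 and 16675 CPM, against 19859.9, 52427, 59988 and 59091 CPM on day 1. The ages did not overlap at 21% O2, and at 7% O2 they overlapped only through day 1 replicate 1. The log2 change of ctc-1 was -1.84 ± 0.27 (adjusted p = 4.25e-05) where worms lived at 21% O2 and -1.42 ± 0.26 (adjusted p = 0.000367) where they lived at 7% O2. Whole worms at 21% O2 had 7074, 10333, 8055 and 9951 CPM of ctc-1 on day 7, against 14234, 15285, 13728 and 23335 CPM on day 1, without overlap, and it fell by 0.85 ± 0.24 on the log2 scale (adjusted p = 0.0177). At 7% O2 they had 5939, 12718, 10023 and 11868 CPM on day 7, against 10941, 11083, 15539 and 17028 CPM on day 1, the ages overlapped, and the change of -0.42 ± 0.24 did not pass (adjusted p = 0.287).

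The second subunit gene, ctc-2, whose product takes electrons from cytochrome c, fell in all 4 comparisons of age. Day 7 neurons at 21% O2 had 3003, 3269.6, 4530.2 and 5689 CPM, against 20154, 21016, 33379 and 20718 CPM on day 1. Day 7 neurons at 7% O2 had 5336, 6617, 6017 and 5207 CPM, against 10077, 24512, 30532 and 31586 CPM on day 1. Neither pair of groups overlapped, and the log2 changes were -2.51 ± 0.30 (adjusted p = 5.96e-06) and -2.06 ± 0.29 (adjusted p = 2.50e-05). In whole worms ctc-2 was at 1455, 2666, 2222 and 2723 CPM on day 7, against 4897, 8514, 9216 and 11284 CPM on day 1, at 21% O2. At 7% O2 it was at 1197, 3100.4, 2607 and 2601 CPM on day 7, against 3224, 5109.9, 6846 and 6612 CPM on day 1. These did not overlap either, with changes of -1.84 ± 0.31 (adjusted p = 0.000342) and -1.18 ± 0.30 (adjusted p = 0.0129).

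The smallest change with age was that of ctc-3, the third core subunit, in each of the 4 comparisons. Its level was 1620.3, 1877, 2312 and 3434 CPM in day 7 neurons at 21% O2, against 4617, 4412, 8395 and 5362 CPM in day 1 neurons. At 7% O2 it was 2913, 4212, 3016 and 3414 CPM in day 7 neurons, against 2671, 7728, 8189 and 9933 CPM in day 1 neurons. The groups were apart at 21% O2 and overlapped at 7% O2 through day 1 replicate 1, and ctc-3 fell in both, by 1.28 ± 0.32 (adjusted p = 0.00673) and 1.07 ± 0.32 (adjusted p = 0.0167) on the log2 scale. Whole worms held 1061, 1721, 1429 and 1807 CPM on day 7, against 1379, 1804, 2168 and 2815 CPM on day 1, at 21% O2. At 7% O2 they held 855, 2127, 1663 and 2071 CPM on day 7, against 964, 1186, 1959 and 2086 CPM on day 1. Both pairs overlapped, and the changes of -0.38 ± 0.29 (adjusted p = 0.416) and 0.13 ± 0.29 (adjusted p = 0.839) did not pass the test.

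Complex III has a single gene here, ctb-1, encoding cytochrome b. In neurons at 21% O2 it was at 2139, 1907, 2607 and 5175 CPM on day 7, against 14019.8, 15289, 23247 and 18839 CPM on day 1. In neurons at 7% O2 the values were 3051, 4582, 3687 and 2980.1 CPM on day 7, against 7187, 25285, 28520.4 and 38112 CPM on day 1. Every day 7 library lay below every day 1 library, including replicate 1, and ctb-1 fell by 2.57 ± 0.38 (adjusted p = 5.93e-05) and 2.79 ± 0.39 (adjusted p = 1.83e-05) on the log2 scale. Whole worms had 1518, 2124, 1662 and 2027 CPM on day 7, against 6148, 7054, 7306 and 10321 CPM on day 1, at 21% O2. At 7% O2 whole worms had 1204, 2506, 1961 and 2109 CPM on day 7, against 4459, 4444, 7236 and 7392 CPM on day 1. The ages were again apart, and the changes were -2.01 ± 0.24 (adjusted p = 4.75e-06) and -1.58 ± 0.23 (adjusted p = 0.000103).

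Among the complex I genes, nduo-2 changed most in neurons. It encodes one of the proton-pumping membrane subunits. Day 7 neurons at 21% O2 had 273, 166, 247 and 488 CPM, against 2625, 2992, 4881 and 3041 CPM on day 1. At 7% O2 the day 7 neurons had 298, 335, 347 and 363 CPM, against 614, 2671, 6843 and 5815 CPM on day 1. No day 7 library reached a day 1 library, and the log2 changes of -3.51 ± 0.50 (adjusted p = 4.19e-05) and -3.57 ± 0.51 (adjusted p = 2.33e-05) equal levels 11.4-fold and 11.9-fold lower. In whole worms nduo-2 was at 191, 254, 189 and 249.9 CPM on day 7, against 923, 1157, 1551 and 1891 CPM on day 1, at 21% O2. At 7% O2 the values were 119.9, 323, 260.3 and 217 CPM on day 7, against 620.4, 564, 1190.5 and 984 CPM on day 1. The ages were apart here too, with changes of -2.58 ± 0.30 (adjusted p = 1.49e-05) and -1.86 ± 0.30 (adjusted p = 0.000429).

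Another pair of pump subunits, nduo-4 and nduo-5, and the quinone-site subunit nduo-1 fell in every comparison of age. Day 7 neurons at 21% O2 had 416, 389, 505 and 1067 CPM of nduo-4, against 2513, 3475, 5168 and 4004 CPM on day 1, and at 7% O2 665, 807, 721 and 766 CPM on day 7, against 1137, 5346, 7328 and 9670 CPM on day 1. For nduo-5 the values were 1698, 1521, 2222 and 4814 CPM on day 7, against 7638, 9648, 12733 and 10461 CPM on day 1, at 21% O2, and 3224, 4074, 2998 and 2936 CPM on day 7, against 5341, 15158, 17076 and 25034 CPM on day 1, at 7% O2. For nduo-1 they were 547, 550.5, 655 and 1078 CPM on day 7, against 1789, 2350, 3438 and 2291 CPM on day 1, at 21% O2, and 770.4, 926, 836 and 729 CPM on day 7, against 1238, 2786, 3626 and 4131 CPM on day 1, at 7% O2. None of these neuron groups overlapped between ages. The neuron log2 changes were -2.65 ± 0.45 and -2.99 ± 0.46 for nduo-4, -1.96 ± 0.38 and -2.24 ± 0.38 for nduo-5, and -1.78 ± 0.32 and -1.85 ± 0.32 for nduo-1, at 21% and 7% O2. In whole worms the changes were -1.79 ± 0.26 and -1.44 ± 0.26 for nduo-4, -1.29 ± 0.31 and -0.98 ± 0.31 for nduo-5, and -1.20 ± 0.23 and -0.88 ± 0.23 for nduo-1. The edgeR adjusted p of these 12 changes was at most 0.0438, and of the whole-worm groups only those of nduo-1 at 7% O2 overlapped between ages.

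The 2 lowest genes were nduo-3 and nduo-6. The nduo-6 counts in whole worms on day 7 were 32 to 73 per library, against 172 to 586 on day 1. Day 7 neurons had 17.3, 29.0, 22.4 and 43.6 CPM of nduo-3 at 21% O2, against 64.1, 81.6, 159 and 75.6 CPM on day 1, and 30.3, 33.3, 26.7 and 24.6 CPM at 7% O2, against 19.6, 100.1, 138 and 136 CPM on day 1. For nduo-6 they had 12, 8.78, 13.9 and 33.9 CPM at 21% O2, against 39.5, 62.1, 129 and 70.5 CPM on day 1, and 10.3, 15.7, 17.4 and 9.50 CPM at 7% O2, against 20.2, 126, 126 and 187 CPM on day 1. Only nduo-3 at 7% O2 overlapped between ages, again through day 1 replicate 1. In neurons nduo-3 fell by 1.74 ± 0.52 and 1.77 ± 0.52 and nduo-6 by 2.11 ± 0.60 and 3.11 ± 0.62 on the log2 scale at 21% and 7% O2 (edgeR adjusted p at most 0.0192). In whole worms nduo-6 fell by 2.56 ± 0.32 and 1.87 ± 0.32, nduo-3 fell by 1.34 ± 0.34 at 21% O2 although its libraries overlapped between ages, and its change of -0.45 ± 0.33 at 7% O2 did not pass (adjusted p = 0.446).

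In whole worms at 21% O2 nduo-4 was at 531, 641, 578 and 707 CPM on day 7, against 1787, 2056, 1749 and 3239.8 CPM on day 1, and nduo-5 at 1376, 2549, 1804 and 2541 CPM on day 7, against 3873, 5559, 4721 and 6955 CPM on day 1. For nduo-1 the values at 21% O2 were 442, 564, 479.8 and 532 CPM on day 7, against 866, 1145, 1187 and 1633 CPM on day 1. Day 7 lay below day 1 in every library of these. Whole worms at 7% O2 had 383, 859.8, 658 and 771 CPM of nduo-4 on day 7, against 1381, 1220.2, 2119 and 2569 CPM on day 1, 904, 2942, 2339 and 2701 CPM of nduo-5 on day 7, against 2945, 3669, 5511 and 5544 CPM on day 1, and 319, 705, 514 and 644 CPM of nduo-1 on day 7, against 697, 873, 1226 and 1259 CPM on day 1. The lowest pair was at a few CPM: nduo-6 had 5.62, 6.64, 6.04 and 5.03 CPM on day 7, against 26.5, 34.9, 38.0 and 44.8 CPM on day 1, at 21% O2, and 3.37, 6.08, 6.81 and 9.40 CPM on day 7, against 18.7, 13.4, 31 and 31.5 CPM on day 1, at 7% O2. For nduo-3 whole worms had 7.10, 12.3, 10.6 and 15.3 CPM on day 7, against 13.5, 30.1, 37.8 and 38.5 CPM on day 1, at 21% O2, and 10.1, 16.3, 19.1 and 16.1 CPM on day 7, against 14.3, 14.2, 27.4 and 28.7 CPM on day 1, at 7% O2.

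Without day 1 neuron replicate 1 at 7% O2, all 10 genes were again called lower in day 7 neurons at that O2 level, with a median of -2.42. Without day 7 neuron replicate 4 at 21% O2, all 10 were again called lower there, with a median of -2.33. Markers moved with age in the same neuron libraries. Against day 1, the O2-sensing markers were lower on day 7 as given above, the 8 pan-neuronal markers summed to 784 and 747 CPM on day 7 (21% and 7% O2), against 4396 and 4389 CPM on day 1, and touch neuron markers to 749 and 564 CPM, against 10394 and 13490.2 CPM.

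Markers of other tissues differed with age as well. The 8 intestinal markers summed to 6387 and 6619 CPM in day 7 neurons, against 1345 and 1448 CPM in day 1 neurons. Most of this was vit-2 and vit-6, which encode yolk proteins: vit-6 had a median of 3308 and 4450.1 CPM in day 7 neurons, against 465 and 379 CPM in day 1 neurons. Of 7 intestinal markers tested in neurons, 2 rose and 1 fell at 21% O2, and 3 rose and 0 fell at 7% O2. The median of asp-1, an intestinal protease gene, was 27.2 and 49.4 CPM in day 7 neurons, against 81.8 and 89.0 CPM in day 1 neurons, and elt-2, the defining intestinal transcription factor, was at 0 in 3 and 2 of 4 day 7 libraries and in 3 of 4 in each day 1 group. Epidermal markers summed to 347 and 461 CPM in day 7 neurons, against 78.7 and 74.8 CPM in day 1 neurons, while in whole worms they summed to 23.6 and 27.1 CPM on day 7, against 265 and 167 CPM on day 1. The collagen gene sqt-3 made up most of the day 7 neuron sum, with a median of 340.5 and 444 CPM, and the adult collagen gene col-19 had medians of 1.89 and 0.338 CPM in day 7 neurons, against 56.7 and 79.4 CPM in day 1 neurons. In whole worms body wall muscle markers summed to 1705 and 2461 CPM on day 7, against 9413 and 6791 CPM on day 1, and all 8 fell at both O2 levels. In sorted neurons the same markers summed to 1034 and 1609 CPM on day 7, against 2784 and 3690 CPM on day 1. At 7% O2 these neuron libraries overlapped between ages. Not every muscle marker was lower there: the myo-3 median was 228 CPM in day 7 neurons, against 81.5 CPM in day 1 neurons. The part of these shifts in the changes of the 10 genes was not tested, and in bulk samples fewer cells of a type and less RNA per cell cannot be told apart.

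**Figure D3:**
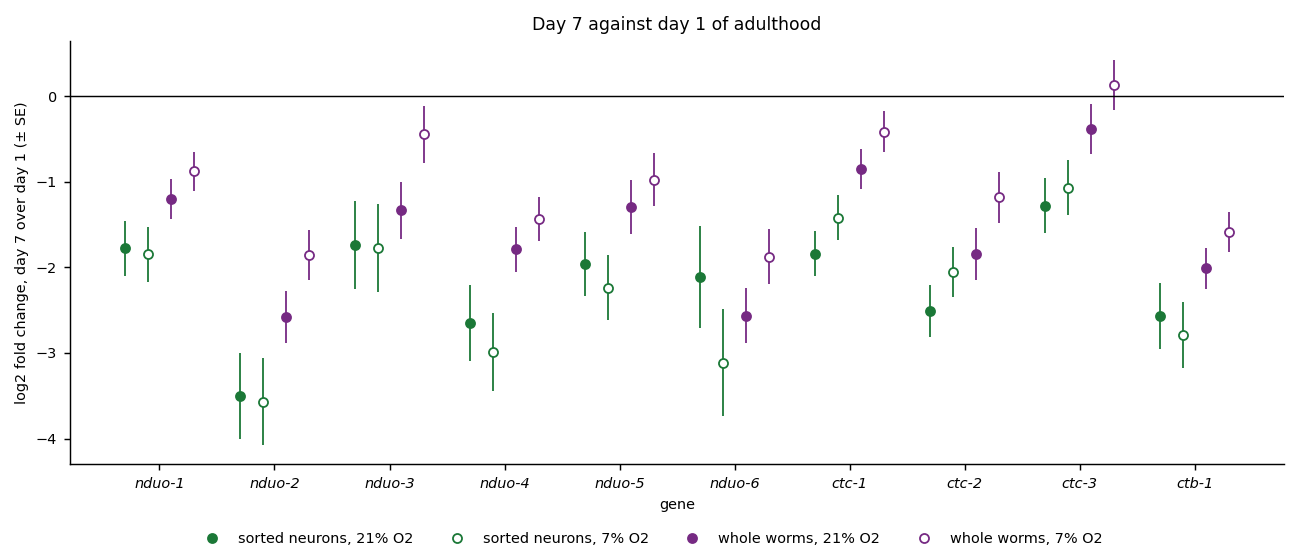
Log2 fold change of each gene, day 7 over day 1, in sorted neurons (green) and whole worms (purple) at 21% O2 (filled) and 7% O2 (open). Bars are SE from the edgeR fit, and the line at 0 marks equal levels. In neurons every change lies between -3.57 (nduo-2) and -1.07 (ctc-3), and in whole worms between -2.58 (nduo-2) and 0.13 (ctc-3).

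The second comparison sets sorted neurons against whole worms. On day 1 each of the 10 genes was higher in neurons, whichever the O2 level, by a median log2 difference of 1.39 at 21% O2 and 2.21 at 7% O2, while 30.0% and 26.8% of all tested genes were called higher. On day 7, 5 of 10 were higher at 21% O2 (median 0.57, background 23.5%) and 5 of 10 at 7% O2 (median 0.83, background 24.7%). Medians over all genes tested were 0.09 and 0.04 on day 7 and 0.02 and -0.07 on day 1.

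The levels in each library are those given above, neurons and whole worms alike. On day 1 at 21% O2 the log2 differences ran from 0.92 ± 0.26 for nduo-4 to 1.79 ± 0.39 for nduo-3, with ctc-2 at 1.62 ± 0.25 (adjusted p = 0.000319), ctc-1 at 1.45 ± 0.20 (adjusted p = 0.000159) and ctb-1 at 1.35 ± 0.21 (adjusted p = 0.000368). Neurons and whole worms overlapped there for nduo-4 and nduo-6 and for no other member. At 7% O2 on day 1 the differences ran from 1.64 ± 0.38 for nduo-1 to 2.38 ± 0.61 for nduo-6, the edgeR adjusted p was at most 0.0250, and 7 members overlapped, each through replicate 1 of the neurons. Only ctc-1, ctc-2 and ctc-3 did not. Without that library all 10 were still called higher, with a median of 2.48. Overlap was not counted over all genes, in this comparison or the others, so such counts only describe the 10 genes.

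On day 7 the genes called higher in neurons at 21% O2 were ctc-2, ctc-3, ctb-1, nduo-3 and nduo-6. The gene furthest past the test was ctc-2, at 0.88 ± 0.24 (adjusted p = 0.0171), and its neuron and whole-worm libraries did not overlap. The other 4 had differences between 0.64 ± 0.24 (ctc-3) and 1.57 ± 0.59 (nduo-6) with edgeR adjusted p of at most 0.0782, of which ctc-3 and ctb-1 overlapped between sample types. The nduo-4 difference was -0.03 ± 0.29 (adjusted p = 0.956). This count depended on single libraries. Without day 7 neuron replicate 4 at 21% O2, the library with low O2-sensing and high intestinal and germline markers, it was 1 of 10, with a median of 0.22. The 10 genes summed to 37195 CPM in that library and to 18843 to 24743 CPM in the other 3. The count was 1, 2, 1 and 3 without whole-worm replicates 1, 2, 3 and 4 in turn. With DESeq2 it was 3, for which no share over all genes is given here.

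At 7% O2 on day 7, ctc-1, ctc-2, ctc-3, ctb-1 and nduo-3 were called higher in neurons. The smallest adjusted p was that of ctc-2, at 1.26 ± 0.24 (adjusted p = 0.00167), followed by ctc-3 at 0.99 ± 0.25 (adjusted p = 0.00884), ctb-1 at 0.86 ± 0.22 (adjusted p = 0.00887), ctc-1 at 0.79 ± 0.20 (adjusted p = 0.00928) and nduo-3 at 0.88 ± 0.37 (adjusted p = 0.0786). None of these overlapped between neurons and whole worms. The nduo-1 difference of 0.56 ± 0.22 had an adjusted p of 0.0656 but was under the fold limit, at 1.47-fold. The 4 genes called at both O2 levels on day 7 were ctc-2, ctc-3, ctb-1 and nduo-3.

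These tests treat all libraries as independent. By the study's methods each whole-worm aliquot came from a suspension that was then sorted, so neuron and whole-worm libraries share suspensions, but no source used here says that equal replicate numbers mark the same suspension. With the replicate number as a block, 4 genes were called on day 7 at 21% O2, where nduo-6 no longer passed (edgeR adjusted p = 0.160). At 7% O2 on day 7 the block gave 7 calls, adding nduo-1, nduo-2 and nduo-5 (edgeR adjusted p at most 0.0591) and losing nduo-3 (edgeR adjusted p = 0.141). On day 1 it called all 10 at both O2 levels. No share over all genes is given here for the block.

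**Figure D4:**
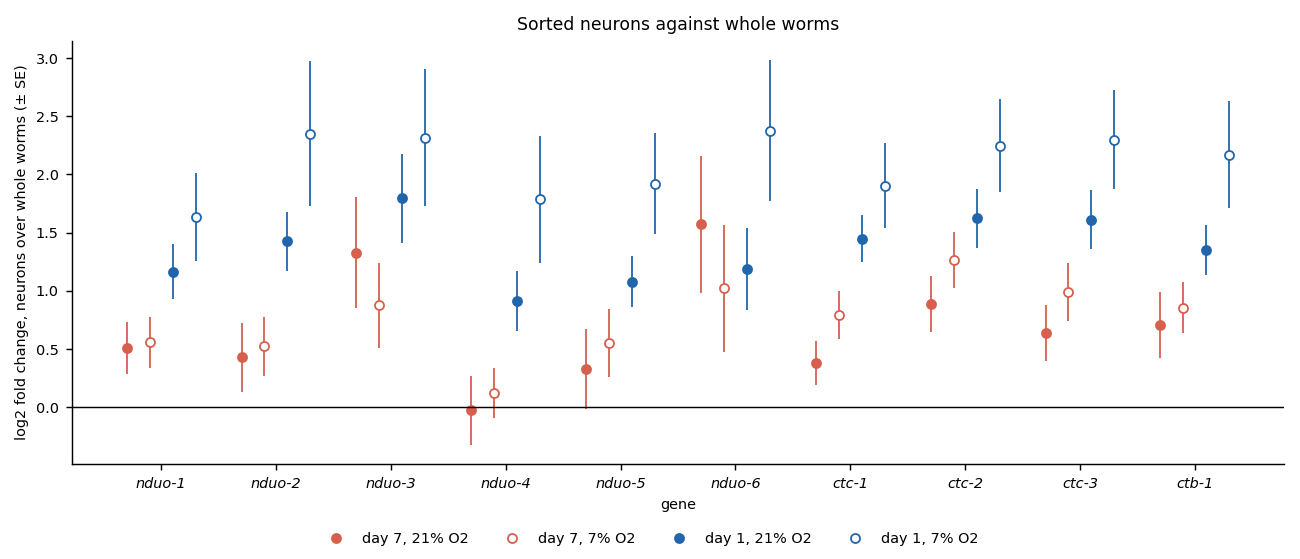
Log2 fold change of each gene, sorted neurons over whole worms, on day 7 (red) and day 1 (blue) at 21% O2 (filled) and 7% O2 (open). Bars are SE from the edgeR fit. Day 1 points lie between 0.92 and 2.38, and day 7 points between -0.03 and 1.57.

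Whether the change with age differed between neurons and whole worms was tested as an interaction over all 32 libraries. At 21% O2 the change in neurons was more negative for 1 of 10 genes, ctc-1, by -0.95 ± 0.35 (edgeR adjusted p = 0.0613). The other 9 lay between -0.88 ± 0.58 (nduo-2) and 0.49 ± 0.69 (nduo-6). Of all genes tested there, 21.6% were called in either direction, and 1458 of 13327 were more negative in neurons. At 7% O2, 29.5% of all genes were called in either direction, and 2091 of 13327 were more negative in neurons. The change there was more negative in neurons for 7 of 10 members. These were nduo-2 at -1.70 ± 0.59, nduo-4 at -1.54 ± 0.54, nduo-5 at -1.25 ± 0.51, ctb-1 at -1.20 ± 0.46, ctc-3 at -1.19 ± 0.45, ctc-1 at -0.99 ± 0.35 and nduo-1 at -0.96 ± 0.40, with edgeR adjusted p between 0.0355 and 0.0814. The medians of the 10 were -0.63 at 21% O2 and -1.21 at 7% O2, against -0.01 and -0.11 over all genes. Scaling by library totals alone gave 0 calls at both O2 levels. At 21% O2 the count was 4 without day 7 neuron replicate 4 and 0 without day 7 neuron replicate 1 or 2, day 1 neuron replicate 3, day 7 whole-worm replicate 2 or 4, or day 1 whole-worm replicate 1, 2 or 3. At 7% O2 it was 4 without day 1 neuron replicate 3, 2 without day 1 neuron replicate 4, 3 and 4 without day 7 whole-worm replicates 2 and 4, and 3 without day 1 whole-worm replicate 1 or 2. It was 10 at 7% O2 without day 1 neuron replicate 1. The marker shifts with age lie in these same libraries, and their part in these differences was not tested.

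The third comparison is that of worms kept at 21% against 7% O2. With edgeR none of the 10 genes was called in neurons or whole worms on either day, and with DESeq2 none was either. With edgeR few genes were called at all: 0.154% and 0.0939% of those tested in neurons on day 7 and day 1, and 0.0551% and 0.00918% in whole worms. No such share is given here for DESeq2. The study, which used DESeq2 at the same thresholds, reported more genes between O2 levels in neurons and whole worms on both days. At an unadjusted edgeR p under 0.05 there was 1 member in day 7 neurons (ctc-1), 0 in day 1 neurons, 0 in day 7 whole worms and 1 in day 1 whole worms (nduo-2). Over all genes, 826 and 831 of 11720 passed that cut in neurons on day 7 and day 1. In whole worms 633 and 1307 of 10894 did. Day 7 neurons had 9277, 9126, 11629 and 15371 CPM of ctc-1 at 21% O2, against 17078, 20738, 16905 and 16675 CPM at 7% O2, which did not overlap, and the difference of -0.65 ± 0.26 had an adjusted p of 0.611. Day 1 whole worms had 923, 1157, 1551 and 1891 CPM of nduo-2 at 21% O2, against 620.4, 564, 1190.5 and 984 CPM at 7% O2, which overlapped, with a difference of 0.66 ± 0.29 (adjusted p = 0.367).

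The median difference between O2 levels was -0.29 in day 7 neurons, -0.31 in day 1 neurons, -0.12 in day 7 whole worms and 0.34 in day 1 whole worms. In day 1 whole worms all 10 estimates were above 0, from 0.20 ± 0.23 (nduo-1) to 0.66 ± 0.29 (nduo-2), and in day 1 neurons all 10 were below 0, though nduo-3 and ctc-2 were above 0 when scaled by library totals. Without replicate 1 at 7% O2 the day 1 neuron median was -0.60, with 0 called. Without day 7 neuron replicate 4 at 21% O2 the day 7 neuron median was -0.58, also with 0 called. The SE of a member's difference between O2 levels was 0.26 to 0.58 in neurons and 0.23 to 0.34 in whole worms, so changes of several fold could also have gone uncalled. The interaction of age and O2 was called for 0 of 10 in neurons (background 0.0597%) and 0 of 10 in whole worms (background 0.211%), with 0 members under an unadjusted p of 0.05 in either and 0 called by DESeq2. Over all genes, 872 of 11720 in neurons and 1406 of 10894 in whole worms were under that unadjusted edgeR p. For DESeq2 no share over all genes is given. The medians over the 10 genes were 0.07 in neurons and -0.47 in whole worms. Without day 1 neuron replicate 1 at 7% O2 the neuron median was 0.39. It was -0.08 without day 7 neuron replicate 4 at 21% O2. The SE of a member's interaction was 0.36 to 0.82 in neurons and 0.32 to 0.47 in whole worms, so the lack of calls does not show that the interaction is absent.

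The share that each gene took of the 10 genes' counts needs no scaling between libraries, and it differed with age. These shares were looked at after the changes above were known, so no test is given. In day 7 neurons ctc-1 made up 46.4% ± 3.47 and 49.9% ± 1.10 of these counts at 21% and 7% O2, against 38.4% ± 2.52 and 37.2% ± 3.8 in day 1 neurons (mean ± SD, n = 4 each). In whole worms it made up 49.7% ± 1.48 and 51.5% ± 1.98 on day 7, against 37.1% ± 3.68 and 39.8% ± 2.54 on day 1. The share of ctc-1 was higher on day 7 in all 4 comparisons, with no overlap of the libraries within one.

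The shares of ctc-3 were 9.27% ± 0.587 and 9.43% ± 0.825 in day 7 neurons, against 5.17% ± 0.606 and 5.42% ± 0.273 in day 1 neurons. In whole worms they were 8.37% ± 0.470 and 8.38% ± 0.487 on day 7, against 4.51% ± 0.510 and 4.38% ± 0.455 on day 1. At each O2 level the day 7 libraries were above all day 1 libraries, in neurons and in whole worms alike. The opposite held for nduo-2, with 1.16% ± 0.260 and 0.946% ± 0.132 in day 7 neurons, against 3.08% ± 0.285 and 2.65% ± 1.30 in day 1 neurons. Its lowest day 1 neuron share, 1.27% in replicate 1 at 7% O2, was still above the 4 day 7 shares at that O2 level. For ctb-1 the shares were 11.5% ± 1.70 and 9.91% ± 0.969 in day 7 neurons, against 16.4% ± 0.904 and 18% ± 2.42 in day 1 neurons, and 10.3% ± 0.549 and 9.97% ± 0.768 in day 7 whole worms, against 17.2% ± 0.676 and 16.9% ± 0.827 in day 1 whole worms. The widest 95% Wilson interval of one gene's share in one library spanned 0.681 percentage points.

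**Figure D5:**
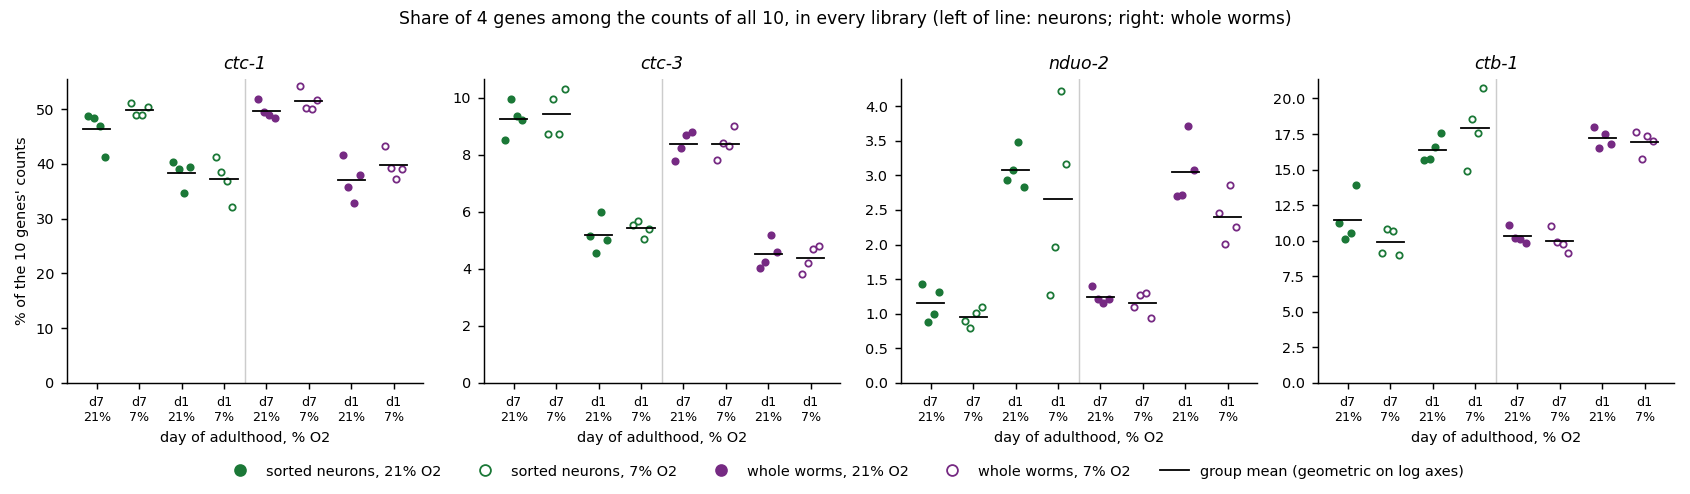
Share of ctc-1, ctc-3, nduo-2 and ctb-1 among the counts of all 10 genes (%), by library, day 7 (d7) left of day 1 (d1) within neurons and within whole worms. Points are libraries, 4 per group, and black lines are group means. The ctc-1 and ctc-3 shares are higher on day 7, and the nduo-2 and ctb-1 shares are lower.

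Ratios within a library show the same shift. There were 0.126 ± 0.0357 and 0.101 ± 0.0152 counts of nduo-2 per count of ctc-3 in day 7 neurons, against 0.599 ± 0.0532 and 0.499 ± 0.269 in day 1 neurons. For ctb-1 per count of ctc-3 the ratios were 1.24 ± 0.217 and 1.06 ± 0.144 in day 7 neurons, against 3.20 ± 0.356 and 3.32 ± 0.480 in day 1 neurons. In whole worms ctb-1 per ctc-3 was 1.24 ± 0.137 and 1.20 ± 0.161 on day 7, against 3.85 ± 0.462 and 3.90 ± 0.491 on day 1. The ctb-1 and ctc-3 genes are separated only by a tRNA gene, at MtDNA:5621-5676, and their ratio was lower on day 7 in each of these pairs of groups.

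Across the 16 neuron libraries the log2 levels of the 10 genes moved closely together, with a median Pearson r of 0.96 over 45 pairs and a lowest r of 0.90, for nduo-2 and ctc-3. Across the 16 whole-worm libraries the median r was 0.93 and the lowest 0.47, for nduo-6 and ctc-3. These libraries share age and O2 groups, so the values describe the samples and are given without a test.

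The other 2 protein genes of the mitochondrial genome, atp-6 and ndfl-4, encode a membrane subunit of ATP synthase and a small subunit of complex I. The atp-6 gene (WBGene00010960, MtDNA:2634-3235) had 195, 242, 320 and 658 CPM in day 7 neurons at 21% O2, against 947, 1057, 2065 and 1142 CPM in day 1 neurons, without overlap. Like the 10 genes it fell with age in neurons, by 1.86 ± 0.39 and 1.96 ± 0.39 on the log2 scale at 21% and 7% O2, and in whole worms, by 1.84 ± 0.40 and 1.20 ± 0.39 (edgeR adjusted p at most 0.0575). Between sample types it was higher in neurons by 2.42 ± 0.42 and 2.44 ± 0.32 on day 7 and by 2.51 ± 0.31 and 3.31 ± 0.45 on day 1 (edgeR adjusted p at most 0.00153). These differences between sample types exceeded those of all 10 genes in each of the 4 conditions. The ndfl-4 gene (WBGene00010958, MtDNA:549-783) had 1 to 106 counts per library, and its change with age passed in no comparison. It was higher in neurons on day 7 at both O2 levels and on day 1 at 7% O2 (edgeR adjusted p between 0.0590 and 0.0820).

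Nuclear genes that encode the rest of the respiratory chain were counted from a list of 53 genes found in the table. Between day 7 and day 1 in neurons, 0 rose and 5 fell of 51 tested at 21% O2 (median -0.49), and 1 rose and 4 fell of 51 at 7% O2 (median -0.01). In whole worms 28 of 50 fell at 21% O2 (median -0.74) and 26 of 50 at 7% O2 (median -0.78), and none rose. Of all genes tested, 12.1% and 15.4% were called higher in neurons and 7.92% and 7.49% in whole worms, and the shares called lower are those given for the same comparisons of age. All genes called in neurons belonged to complexes II, III and IV. They include mev-1, the cytochrome b subunit of complex II, which averaged 30.2 CPM on day 7, against 84.9 CPM on day 1, a log2 change of -1.47 ± 0.43 (adjusted p = 0.0185), and sdha-1, the flavoprotein subunit of complex II, which averaged 27.5 CPM on day 7, against 119 CPM on day 1, a log2 change of -2.1 ± 0.46 (adjusted p = 0.00218). The complex IV subunit gene cox-5A, listed as cco-2, averaged 98.2 CPM on day 7, against 215 CPM on day 1, a log2 change of -1.11 ± 0.32 (adjusted p = 0.0153).

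At 7% O2 the complex III core gene ucr-2.1 was the one that rose in neurons, averaging 193 CPM on day 7, against 108 CPM on day 1, a log2 change of 0.83 ± 0.31 (adjusted p = 0.0502), and cox-4, listed as W09C5.8, fell, with a log2 change of -1.43 ± 0.43 (adjusted p = 0.0163). In whole worms the same ucr-2.1 fell at both O2 levels, averaging 38.2 CPM on day 7, against 114 CPM on day 1, a log2 change of -1.52 ± 0.16 at 21% O2 (adjusted p = 1.33e-06). The ATP synthase gene atp-5 averaged 99.4 CPM on day 7, against 219 CPM on day 1, a log2 change of -1.08 ± 0.15 in whole worms at 21% O2 (adjusted p = 3.54e-05), and the complex I gene gas-1 averaged 14.7 CPM on day 7, against 44.5 CPM on day 1, a log2 change of -1.54 ± 0.27 (adjusted p = 0.000473).

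Between neurons and whole worms the nuclear respiratory genes were split. On day 7, 10 were higher and 4 lower of 49 tested at 21% O2, and 13 higher and 5 lower of 48 at 7% O2. On day 1, 7 were higher and 5 lower of 51 at 21% O2, and 5 higher and 7 lower of 50 at 7% O2. Over all genes tested the shares called higher were those given above, and 16.8% and 21.1% were called lower on day 7 and 22.8% and 19.5% on day 1. The day 7 shares of nuclear genes called higher thus lay near the background, and the day 1 shares lay below it. Complex II had 4 of 5 higher and 1 lower on day 1 at 21% O2, where sdha-1 averaged 119 CPM in neurons and 68.2 CPM in whole worms, a log2 difference of 0.94 ± 0.27 (adjusted p = 0.0134), while sdha-2, a second gene for the same subunit, averaged 8.77 CPM in neurons and 97.9 CPM in whole worms, a log2 difference of -3.34 ± 0.69 (adjusted p = 0.00231). Among ATP synthase genes on day 7 at 7% O2, asb-2 averaged 112 CPM in neurons and 29.1 CPM in whole worms, a log2 difference of 1.93 ± 0.27 (adjusted p = 0.000215), and its paralog asb-1 averaged 15 CPM in neurons and 57.6 CPM in whole worms, a log2 difference of -1.95 ± 0.37 (adjusted p = 0.00166). The study set a minimum alignment quality of 10 for counting, and the part of reads shared between such paralogs was not tested. None of the nuclear respiratory genes was called between 21% and 7% O2 in neurons or whole worms on either day.

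Genes for the upkeep and expression of the mitochondrial genome (11 in the table and tested on day 1) were called higher once and lower 6 times in neurons against whole worms on day 1 at 21% O2, and once and 7 times at 7% O2, where 22.8% and 19.5% of all genes tested were called lower. On day 7 there was 1 call in each direction of 10 tested at each O2 level. Over all genes on day 7, 23.5% and 24.7% were called higher in neurons and 16.8% and 21.1% lower. The mitochondrial RNA polymerase gene rpom-1 averaged 7.63 CPM in neurons and 31.4 CPM in whole worms, a log2 difference of -1.93 ± 0.51 on day 1 at 21% O2 (adjusted p = 0.00901). With age in neurons, 1 of the 11 rose and 1 fell at 21% O2, and 2 rose and 1 fell at 7% O2, with gfm-1, a mitochondrial translation elongation factor, averaging 116 CPM on day 7, against 22.4 CPM on day 1, a log2 change of 2.37 ± 0.58 at 7% O2 (adjusted p = 0.00432). In whole worms 1 of 11 fell at 21% O2 and 3 at 7% O2, against 10.7% and 8.36% of all genes tested. Over all genes, 12.1% and 15.4% rose and 18% and 21.0% fell with age in neurons, and these shares apply to the next groups too.

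Of 8 tested genes for mitochondrial stress response and proteases, 2 rose and 1 fell with age in neurons at 21% O2. The ones that rose encode chaperones of the matrix: hsp-6 averaged 556 CPM on day 7, against 205 CPM on day 1, a log2 change of 1.45 ± 0.31 (adjusted p = 0.00182) and hsp-60 averaged 149 CPM on day 7, against 59.4 CPM on day 1, a log2 change of 1.34 ± 0.40 (adjusted p = 0.0177). At 7% O2 none of the 8 was called in neurons. In whole worms hsp-60 fell, averaging 123 CPM on day 7, against 223 CPM on day 1, a log2 change of -0.81 ± 0.20 at 21% O2 (adjusted p = 0.00865). Of 9 tested genes for mitochondrial dynamics and mitophagy, 0 rose and 2 fell with age in neurons at 21% O2 and 1 rose and 3 fell at 7% O2, among them eat-3, which is needed for fusion of the inner membrane and averaged 59.6 CPM on day 7, against 175 CPM on day 1, a log2 change of -1.55 ± 0.37 at 7% O2 (adjusted p = 0.00336), and none was called in whole worms. The mitophagy receptor gene dct-1 was called higher in neurons than in whole worms in all 4 conditions, averaging 88.2 CPM in neurons and 28.6 CPM in whole worms, a log2 difference of 1.61 ± 0.31 on day 7 at 7% O2 and 198 CPM in neurons and 21.2 CPM in whole worms, a log2 difference of 3.31 ± 0.44 on day 1 at 7% O2 (edgeR adjusted p = 0.00165 and 0.000196).

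The 5 genes off the mitochondrial genome whose log2 level followed the summed level of the 10 most closely, by Pearson r over 32 libraries among 13310 genes, were F39H12.3 (r = 0.90), cco-2 (0.89), pfk-1.1 (0.89), mev-1 (0.89) and VM106R.1 (0.89). Within the 16 neuron libraries r lay between 0.89 and 0.94, and within the 16 whole-worm libraries between 0.55 and 0.82. The 5 genes were picked from these same libraries, which share age and O2 groups, so these values only describe the samples and no test is given. The pfk-1.1 gene encodes phosphofructokinase, the committing enzyme of glycolysis, and averaged 114 and 119 CPM in day 7 neurons at 21% and 7% O2, and 507 and 422 CPM in day 1 neurons. In whole worms it averaged 66.4 and 66.2 CPM on day 7, and 171 and 118 CPM on day 1.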

How the data were processed

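RNA from sorted neurons and whole worms was amplified to cDNA (Ovation V2), and the authors trimmed reads with Cutadapt 1.9, aligned them to WBcel235 with STAR 2.5.2b and deposited raw counts per gene from featureCounts 1.5.1, with rRNA genes removed. Neither amplified cDNA nor these counts record strand. Counts were tested with edgeR 4.0.16 in R 4.3.3 (limma 3.58.1, DESeq2 1.42.0 as an alternative): robust quasi-likelihood F tests, TMM scaling, filterByExpr with a minimum count of 10, Benjamini-Hochberg adjustment over all genes, with calls needing an adjusted p under 0.1 and a change of 1.5-fold or more. Sample types were compared over 8 libraries, ages and O2 levels over the 16 of a sample type, and sample type by age over all 32. Alternatives covered scaling, filter, thresholds, samples, DESeq2, a replicate block and leaving out each library. The SE is the log2 change divided by the root of F. The labels call the replicates biological but name no shared batch. The members and lists were chosen with earlier results of these data known. From each list at most the 2 called genes with the smallest p per direction were eligible to be named, and 5 genes by Pearson correlation of log2(CPM + 1).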

Additional observations from a re-analysis of the deposited data

Results flagged for a closer look

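In 4 of 88 groups of 4 libraries tested, 1 library lay far from the other 3 (chance marks about 1 in 20 such groups). For nduo-4, replicate 4 of day 7 neurons at 21% O2 had 1067 CPM, while the others had 389 to 505 CPM. For ctc-1, replicate 2 of day 7 neurons at 7% O2 had 20738 CPM and the others 16675 to 17078 CPM, and replicate 4 of day 1 whole worms at 21% O2 had 23335 CPM and the others 13728 to 15285 CPM. For ctc-2, replicate 3 of day 1 neurons at 21% O2 had 33379 CPM and the others 20154 to 21016 CPM.

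The change with age differed between neurons and whole worms in the edgeR interaction test for 8 gene and O2 pairs, each more negative in neurons. At 21% O2 this was ctc-1 (-0.95). At 7% O2 these were nduo-1 (-0.96), nduo-2 (-1.70), nduo-4 (-1.54), nduo-5 (-1.25), ctc-1 (-0.99), ctc-3 (-1.19) and ctb-1 (-1.20), on the log2 scale. Over all genes tested, 21.6% were called in either direction at 21% O2 and 29.5% at 7% O2. The share of members called at 21% O2 was thus below that over all genes. With library totals no member was called at either O2 level. Without F31C3.14, a setting chosen after seeing the data, the count was 0 at 21% O2 and 2 at 7% O2.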

How the results depend on the processing

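The calls of age in neurons (10 of 10 at each O2 level) and of sample type on day 1 (10 of 10) held when each library was left out in turn, and the age calls in whole worms stayed at 9 at 21% O2 and 6 to 7 at 7% O2. With library totals the count was 7 for sample type on day 1 at 21% O2. At 7% O2 it was then 9 for age in neurons and 8 for age in whole worms. On day 7 the 5 genes higher in neurons at 21% O2 became 1 at an adjusted p under 0.05 and with library totals, 2 with no filter, 3 with RLE factors, DESeq2 or all 32 libraries in one fit, and 1 to 6 with a library left out. The 5 at 7% O2 became 9 with library totals, and 4 to 6 with a library left out. The O2 count in day 7 neurons was 1 with no filter. Shares of all genes called are not given for the alternative settings. For sample type by age at 21% O2 the count of 1 became 0 at an adjusted p under 0.05, with library totals or without F31C3.14 (chosen after seeing the data), 3 with no filter, and 0 to 4 with a library left out, when the median ran from -1.12 to -0.46. At 7% O2 the count of 7 became 3 at an adjusted p under 0.05, 0 with library totals, 2 without F31C3.14, and 2 to 10 with a library left out. Library totals moved the median to 0.87 for sample type on day 1 at 21% O2 and to -0.45 for sample type by age at 7% O2, where they moved the median of all genes to -0.52 and 0.51, and the cause of the other shifts was not tested. No comparison had all 4 same-numbered pairs correlate over 0.1 in their deviations from the group means (the lowest was -0.19), and no source ties the numbers to shared suspensions, so they were not taken as pairs. In 2 comparisons, 1 of them neurons against whole worms on day 1 at 21% O2, all 4 samples correlated best with their own number. The replicate block gave 2 calls for sample type by age at 21% O2, 8 at 7% O2, and 4 and 7 for sample type on day 7 at 21% and 7% O2. The 90 sign changes below and in the single-library fits concerned no called gene. For nduo-4 between sample types on day 7 at 21% O2, the lowest edgeR adjusted p with a library left out was 0.0274. No such fit reached the 1.5-fold limit for it. No alternative varied depth, and nduo-6 rested on 32 to 73 counts in day 7 whole-worm libraries. The absence of calls for O2 and for age by O2 does not show that levels were equal, and changes of several fold may have been missed. With library totals the sign changed for O2 in day 1 neurons in nduo-3 (0.17) and ctc-2 (0.17). With library totals the sign changed for O2 in day 7 whole worms in nduo-1 (0.086), nduo-2 (0.15), nduo-4 (0.076), nduo-5 (0.12), nduo-6 (0.053), ctc-1 (0.011), ctc-2 (0.15), ctc-3 (0.055) and ctb-1 (0.12). With library totals the sign changed for age in whole worms at 7% O2 in ctc-3 (-0.075). With library totals the sign changed for age by O2 in neurons in nduo-1 (-0.28), nduo-2 (-0.33), nduo-3 (-0.34), nduo-4 (-0.035), nduo-5 (-0.071) and ctb-1 (-0.14). With the replicate block the sign changed for O2 in day 1 neurons in nduo-3 (0.059) and ctc-2 (0.031). With the replicate block the sign changed for age by O2 in neurons in nduo-1 (-0.063), nduo-2 (-0.22), nduo-3 (-0.21), nduo-5 (-0.017) and ctb-1 (-0.026). Leaving out 1 library turned the sign for sample type on day 7 at 21% O2 in nduo-4 (-0.51 to 0.13) and nduo-5 (-0.21 to 0.52). The same held for sample type on day 7 at 7% O2 in nduo-4 (-0.021 to 0.25). Signs also turned for O2 in day 1 neurons in nduo-2 (-0.60 to 0.15), nduo-3 (-0.42 to 0.15) and ctc-2 (-0.29 to 0.13). Leaving out 1 library turned the sign for O2 in day 7 neurons in nduo-3 (-0.22 to 0.14) and nduo-6 (-0.10 to 0.59). The same held for O2 in day 1 whole worms in nduo-4 (-7.76e-04 to 0.47). Signs also turned for O2 in day 7 whole worms in nduo-1 (-0.31 to 0.041), nduo-2 (-0.28 to 0.16), nduo-4 (-0.32 to 0.030), nduo-5 (-0.37 to 0.066), nduo-6 (-0.36 to 0.14), ctc-2 (-0.30 to 0.10) and ctb-1 (-0.27 to 0.067). Leaving out 1 library turned the sign for age in whole worms at 7% O2 in ctc-3 (-0.042 to 0.35). The same held for age by O2 in neurons in nduo-1 (-0.15 to 0.32), nduo-2 (-0.35 to 0.41), nduo-3 (-0.19 to 0.39), nduo-4 (-0.025 to 0.67), nduo-5 (-0.065 to 0.56), ctc-3 (-0.42 to 0.055) and ctb-1 (-0.077 to 0.52). Signs also turned for sample type by age at 21% O2 in nduo-3 (-0.75 to 0.0062) and nduo-6 (-0.17 to 0.88).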
